A study of Mus musculus with 16 samples.

Results

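The 10 genes described here encode acute-phase proteins and inducible defense factors of the gut epithelium: Saa1, Saa2, Saa3, Lcn2, Slpi, Nos2, Duox2, Duoxa2, Socs3 and Lypd8. They were chosen by name, as the rows of the deposited count table whose Ensembl ID carries that symbol, and all 10 were found among the table's 21965 genes. The table holds poly(A) RNA-seq counts of terminal ileum from 16 male mice, 1 library per mouse. WT mice were C57BL/6, and fat-1 mice were littermates carrying 1 copy of a transgene for the C. elegans n3 desaturase fat-1, which converts n6 to n3 fatty acids and is expressed in all tissues. The labels write this genotype as Fat1+/-, and the mouse cadherin gene of a similar name is not meant. All mice were 8 to 10 weeks old at the start and all received Lieber-DeCarli liquid diet. The EtOH mice received EtOH, reaching 6% (v/v) over the last 3 weeks, and the pair-fed (PF) mice an isocaloric diet with maltose dextrin in its place. The groups were WT PF (n = 4), fat-1 PF (n = 4), WT EtOH (n = 3) and fat-1 EtOH (n = 5), so that the comparisons ask how diet and genotype relate to the level of each gene. Transcripts of the transgene were not analysed here.

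Serum amyloid A proteins (Saa1, Saa2 and Saa3) are small lipid-binding proteins that liver and gut epithelium make during inflammation and in response to attached bacteria, with IL-22 acting through STAT3 as a known inducer. Lcn2 sequesters bacterial siderophores, Slpi inhibits leukocyte serine proteases, Nos2 makes nitric oxide, and Duox2 with its maturation factor Duoxa2 releases hydrogen peroxide at the apical surface. Socs3 is induced by STAT3 and dampens the same signal, and Lypd8 is a secreted epithelial protein known from the colon, where it binds flagellated bacteria and keeps them from the mucosa.

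Several of these genes are neighbours, and the sequences upstream of the Saa genes and between Duox2 and Duoxa2 are shown because the levels of these pairs are compared further on. On GRCm38, Saa3 (chromosome 7, 46711998 to 46715700, minus strand), Saa1 (46740497 to 46742980, minus strand) and Saa2 (46751790 to 46754313, plus strand) form a cluster in which the start sites of Saa1 and Saa2 lie 8810 bases apart and point away from each other. The start sites of Duox2 (chromosome 2, 122279247 to 122298449, minus strand) and Duoxa2 (122298900 to 122302885, plus strand) are separated by 451 bases and also point away from each other. The sequences below are RefSeq sequences of GRCm38.p6, read 5′ to 3′ on the strand of the gene, at chr7:46742981-46743230 for Saa1 (minus strand), chr7:46751583-46751789 for Saa2 (plus strand), chr7:46715701-46715926 for Saa3 (minus strand) and chr2:122298650-122298899 for Duoxa2 (plus strand). Capitals mark matches to a C/EBP letter pattern in the Saa genes and to a TATA box in Duoxa2.
Saa1: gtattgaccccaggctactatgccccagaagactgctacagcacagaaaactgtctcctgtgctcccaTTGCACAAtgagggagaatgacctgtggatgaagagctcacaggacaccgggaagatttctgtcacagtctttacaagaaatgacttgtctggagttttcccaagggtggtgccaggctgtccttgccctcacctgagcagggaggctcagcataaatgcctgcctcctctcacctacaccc
Saa2: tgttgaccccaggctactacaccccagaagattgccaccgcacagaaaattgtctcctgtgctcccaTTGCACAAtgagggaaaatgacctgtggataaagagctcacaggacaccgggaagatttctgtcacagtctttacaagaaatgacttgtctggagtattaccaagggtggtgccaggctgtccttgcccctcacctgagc
Saa3: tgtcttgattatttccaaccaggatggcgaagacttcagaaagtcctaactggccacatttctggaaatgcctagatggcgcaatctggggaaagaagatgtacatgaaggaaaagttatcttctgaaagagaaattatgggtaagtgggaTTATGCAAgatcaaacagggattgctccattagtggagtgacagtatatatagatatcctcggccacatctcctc
Duoxa2: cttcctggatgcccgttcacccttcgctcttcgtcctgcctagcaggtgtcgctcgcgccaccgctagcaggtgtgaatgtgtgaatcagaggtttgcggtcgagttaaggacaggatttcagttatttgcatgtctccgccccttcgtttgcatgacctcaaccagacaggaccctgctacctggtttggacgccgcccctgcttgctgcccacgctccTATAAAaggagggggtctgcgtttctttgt

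The stretches upstream of Saa1 and Saa2 were 94.7% identical over 206 aligned bases, against 65.7% between Saa1 and Saa3 and 61.1% between Saa2 and Saa3. Motifs were searched on both strands of RefSeq windows from 250 bases before to 50 bases after each start, which the table held for 9 of the 10 genes, with 2 windows for Lypd8 and none for Nos2. The C/EBP pattern TTGCNNAA lay in 5 of the 10 windows (Saa1, Saa2, Saa3, Lcn2 and Slpi), and in 10.8% of all 32851 windows. The STAT pattern TTCNNNGAA lay in 1 window, that of Socs3, and in 8.3% of all windows. The letters TATAAA lay in 1 window, that of Duoxa2, 30 to 25 bases before its start, and in 13.6% of all windows. No match overlapped a match to another pattern, and a match describes letters in a window only. RefSeq and the GENCODE annotation place the start at the same base for Saa1 and Duoxa2, and 43 and 24 bases apart for Saa2 and Saa3. The starts lie 222 bases apart for Duox2, 513 for Lcn2, 681 for Socs3 and 32588 for Slpi, and 11 and 1603 for the windows of Lypd8, so that the matches of Lcn2, Slpi and Socs3 lie in windows whose start differs between the annotations.

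Saa1 and Saa2 also resemble each other in the transcript, with 94.4% identity over 606 aligned bases of the main transcripts. Of the 75-base stretches of the Saa1 transcript, 4.67% also occur in Saa2, and 1.04% of those of Saa2 occur in Saa1. These shares cover exact matches only. Over all libraries Saa1 received 66998 counts and Saa2 442, a share of 0.655% for Saa2. This share lay between 0.51% and 0.912% in the 14 libraries other than fat-1 PF 2 and fat-1 PF 4, in which Saa2 had 1 and 3 counts beside 63 and 62 of Saa1. The pooled share was inside the exact (Clopper-Pearson) 95% interval of 15 of the 16 libraries, and these intervals cover counting error only. A small part of the Saa1 reads, if counted as Saa2, would be large beside the Saa2 counts, and this part was not tested. The Duox2 transcript shares 4.13% of its 75-base stretches with Duox1, which was at 1.43 CPM (counts scaled to library size, described below) or less in every library. The exons of Duoxa2 overlap 682 bases of Duoxa1 on the opposite strand, and since the strand setting of the counting was not given in the sources used here, reads in that stretch cannot be assigned with certainty. Duoxa1 itself was at 0.273 CPM or less in every library.

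Library totals ran from 8422645 to 11438539 counts. Levels are in CPM, counts scaled to a common library size after TMM normalization. That size was the total over the 13811 genes that passed the filter on low counts. The libraries numbered 1 to 8 in the labels are the PF mice and those numbered 9 to 16 the EtOH mice, so that diet and library order cannot be told apart. Markers of the proximal small intestine (8 genes such as Lct and Fabp1) summed to 2166 to 59085 CPM in the PF mice and to 132 to 584 CPM in the EtOH mice, with no overlap, and all 8 were called lower in fat-1 EtOH than in fat-1 PF. The highest sums were those of fat-1 PF 2 and fat-1 PF 4, at 57520 and 59085 CPM. The same mice had the lowest ileal bile acid markers, at 491 and 439 CPM against 1083 to 8304.5 CPM in the other 14 libraries, and Slc10a2, the ileal bile acid transporter, at 7.58 and 3.56 CPM. Of large intestine markers (9 genes such as Car1 and Aqp8), the sum was 4990 CPM in WT EtOH 2, 11864 CPM in fat-1 EtOH 3 and 12866 CPM in fat-1 EtOH 4, and 106 to 449 CPM in the other 13 libraries. Paneth cell markers summed to 130 and 119 CPM in fat-1 EtOH 3 and 4 and to 6538 to 25942 CPM elsewhere. The labelled ileum therefore held its defining markers to very unequal degrees, and the main results that rest on some of these 5 libraries (fat-1 PF 2 and 4, WT EtOH 2, fat-1 EtOH 3 and 4) are also given without them. The part of these markers in the results was not tested. Markers shared by all gut epithelium (6 genes) summed to 7393 to 15443 CPM and goblet cell markers (6 genes) to 6685 to 15970 CPM. As this is bulk tissue, fewer cells of a type and less RNA per cell cannot be told apart.

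Of the 10 genes, Lypd8 rose and Socs3 fell with EtOH in fat-1 mice, Lypd8 rose and Lcn2 fell with EtOH in the mean of both genotypes, and none passed the test in the other comparisons. All 10 passed the filter on low counts and were tested among 13811 genes with edgeR, and a gene was called at a Benjamini-Hochberg adjusted p of 0.05 or less over all genes. In fat-1 EtOH against fat-1 PF, 2 of the 10 were called, beside 37.4% of all genes. In EtOH against PF over both genotypes, 2 of the 10 were called, beside 35.9% of all genes. In the first of these comparisons DESeq2 called 4 of the 10 beside 40.3% of all genes, and limma voom 2 beside 26.4%. In the second they called 3 beside 39% and 2 beside 42.2%. Whether the share of the 10 differs from that of all genes was not tested. For fat-1 PF against WT PF the count was 0, beside 0% of all genes, with 2 of the 10 (Saa2 and Lcn2) and 1758 of all genes at an unadjusted p under 0.05. For WT EtOH against WT PF it was 0, beside 0.0796% of all genes, with Lcn2 as the 1 gene at an unadjusted p under 0.05. There limma voom called Lcn2, or 1 of the 10, beside 20.3% of all genes. For fat-1 EtOH against WT EtOH it was 0, beside 0.00724% of all genes, with Socs3 as the 1 gene at an unadjusted p under 0.05. For the interaction of genotype and diet it was 0, beside 0% of all genes, and none of the 10 had an unadjusted p under 0.05. In fat-1 PF against WT PF limma voom called 0 of the 10, beside 0.224% of all genes. DESeq2 called 0 of the 6 to which it gave an adjusted p, beside 2.56% of all genes with one. It gave none for Saa2, Saa3, Lcn2 and Slpi. In fat-1 EtOH against WT EtOH both tools called 0 of the 10, beside 0.00724% of all genes by limma voom and 0.0363% by DESeq2. For the interaction both called 0 of the 10, beside 0% of all genes. In fat-1 EtOH against fat-1 PF no gene of the 10 was called without both fat-1 EtOH 3 and 4, beside 30.8% of all genes, or without both fat-1 PF 2 and 4, beside 13.9% of all genes. These comparisons share groups with each other and are given side by side.

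**Figure D1:**
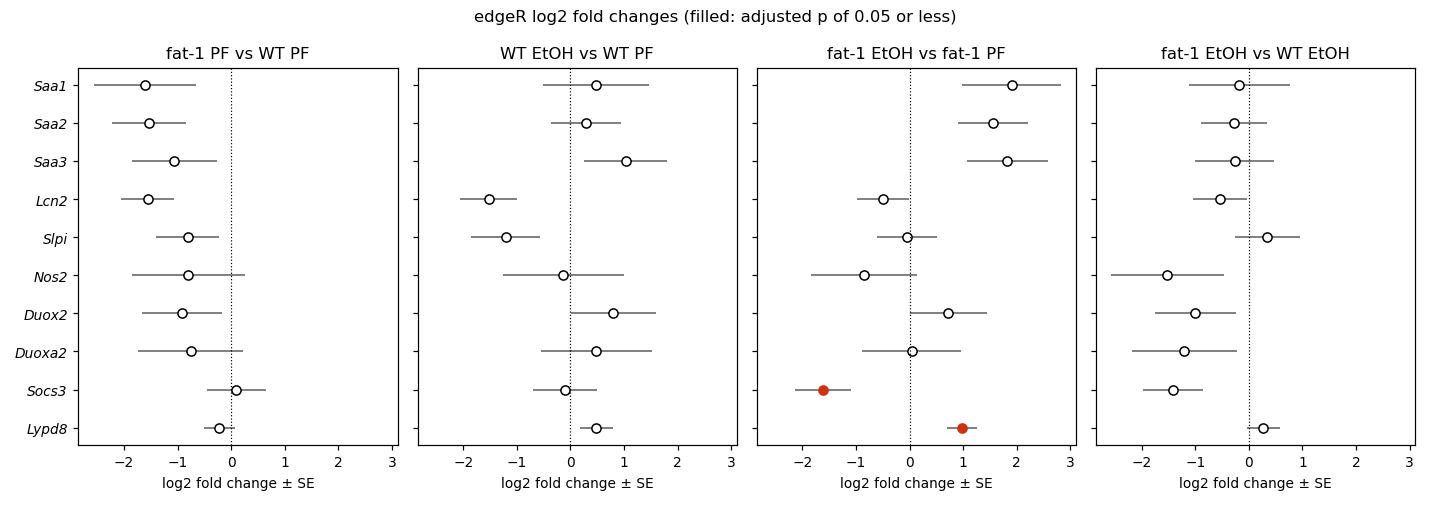
edgeR log2 fold change (points) with its standard error (bars) of each gene in the 4 comparisons of 2 groups, with filled points for an adjusted p of 0.05 or less. The filled points are Socs3 at -1.61 and Lypd8 at 0.98 in fat-1 EtOH against fat-1 PF.

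The medians of the 10 log2 fold changes were -0.87 for fat-1 PF against WT PF, with 9 of 10 genes lower, against 0.02 over all genes tested. They were 0.38 for both diet comparisons within a genotype, with 6 genes higher, against 0.01 over all genes in WT and 0.05 in fat-1 mice. For fat-1 EtOH against WT EtOH the median was -0.41 with 8 of 10 lower, against 0.04 over all genes. In fat-1 PF against WT PF without fat-1 PF 2 and 4, Nos2 and Duoxa2 turned to 0.03 and 0.15, and Duox2 was at -0.13. Saa1, Saa2 and Saa3 were then at -0.66, -0.76 and -0.97, while Lcn2 was at -1.97. Saa1 and Saa2, and Duox2 and Duoxa2, varied together (given below), so the 10 genes are not 10 separate observations. The groups of libraries did not overlap for 1 of the 10 genes (Saa3, lower) in fat-1 PF against WT PF, beside 6.87% of all genes. They did not overlap for 0 of the 10 in WT EtOH against WT PF, beside 24.3% of all genes, for 1 (Socs3, lower) in fat-1 EtOH against fat-1 PF, beside 24% of all genes, and for 0 in fat-1 EtOH against WT EtOH, beside 2.45% of all genes.

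**Figure D2:**
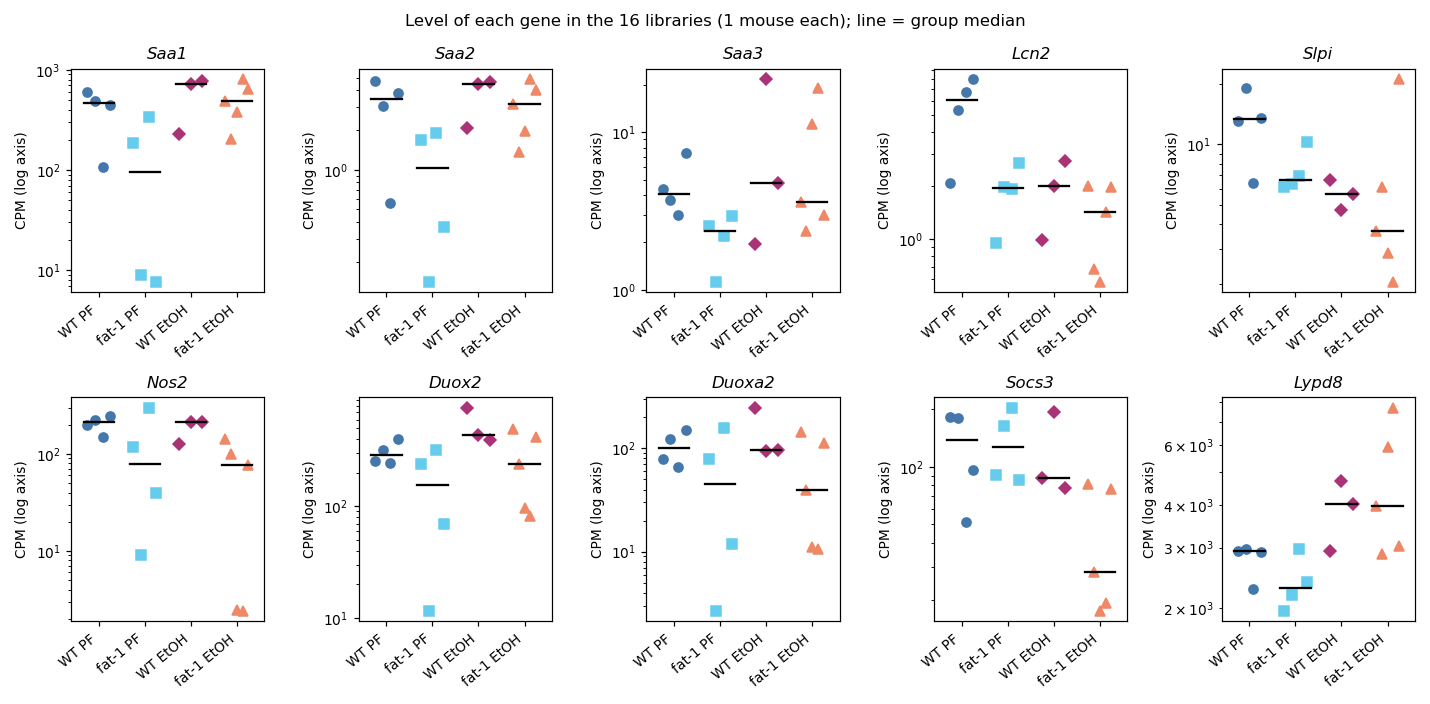
Level of each gene (CPM, log axis) in the 16 libraries by group, 1 point per mouse, with a line at the group median. The fat-1 PF mice split for Saa1, Nos2, Duox2 and Duoxa2, where 2 of 4 lie far below the others, and Lypd8 is highest in 2 fat-1 EtOH mice, at 5899 and 7706 CPM.

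Saa1, the most abundant of the serum amyloid genes, spanned 7.61 to 816 CPM over the 16 libraries, a 107-fold range. In WT PF it was at 602, 494, 108 and 446 CPM, and in fat-1 PF at 184, 8.84, 340 and 7.61 CPM. With EtOH it was at 228, 724 and 769 CPM in WT mice and at 491, 204, 384, 816 and 642 CPM in fat-1 mice. The fat-1 PF group holds the 2 lowest libraries, fat-1 PF 2 and 4, and the ranges of all groups overlap. The log2 fold change was -1.61 (SE 0.95, adjusted p = 0.509 by edgeR) in fat-1 PF against WT PF and -0.66 without fat-1 PF 2 and 4. It was -2.63 without fat-1 PF 3 (adjusted p = 0.224 by edgeR) and -3.38 by limma voom (SE 1.03, adjusted p = 0.0962). It was 1.91 (SE 0.93, adjusted p = 0.117 by edgeR) in fat-1 EtOH against fat-1 PF and 0.95 (adjusted p = 0.325) without these 2 libraries. Without fat-1 PF 3, the highest of that group, it was 2.93 (adjusted p = 0.0411 by edgeR), and the gene was then called, as it was by limma voom over all mice (3.64, adjusted p = 0.0402). The exact two-sided permutation test gave p = 0.0317 for the latter comparison and p = 0.317 after adjustment over the 40 tests of single genes.

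Saa2 followed Saa1 at a far lower level, with 1 to 55 counts per library, in which any part of misassigned Saa1 reads was not tested. It was at 4.70, 3.06, 0.555 and 3.85 CPM in WT PF, at 1.70, 0.140, 1.91 and 0.368 CPM in fat-1 PF, at 2.06, 4.51 and 4.62 CPM in WT EtOH, and at 3.14, 1.36, 1.97, 4.91 and 4.02 CPM in fat-1 EtOH. The lowest libraries were again fat-1 PF 2 and 4, at 1 and 3 counts, together with WT PF 3 at 5 counts. The log2 fold change of fat-1 PF against WT PF was -1.53 (SE 0.68, adjusted p = 0.37 by edgeR), and -0.76 (SE 0.69, adjusted p = 1) without fat-1 PF 2 and 4. That of fat-1 EtOH against fat-1 PF was 1.55 (SE 0.65, adjusted p = 0.0748 by edgeR), and it was called by DESeq2 (adjusted p = 0.0376) and by edgeR without WT PF 3 (adjusted p = 0.0455). Without the same 2 libraries it was 0.77 (adjusted p = 0.422 by edgeR).

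Saa3, which in mice is made by macrophages and fat cells as well as by epithelium, had a different distribution. It was at 4.37, 3.73, 3.00 and 7.38 CPM in WT PF and at 2.54, 1.12, 2.19 and 2.95 CPM in fat-1 PF. It was at 1.97, 21.8 and 4.79 CPM in WT EtOH and at 3.61, 2.38, 11.2, 19.2 and 2.99 CPM in fat-1 EtOH. All WT PF libraries were above all fat-1 PF libraries, and the 3 highest libraries, WT EtOH 2 and fat-1 EtOH 3 and 4, are those with large intestine markers. For fat-1 PF against WT PF the log2 fold change was -1.06 (SE 0.79, adjusted p = 0.622 by edgeR), and the exact two-sided permutation p was 0.0286, the smallest that 4 against 4 mice allow, or 0.317 after adjustment. For fat-1 EtOH against fat-1 PF it was 1.82 (SE 0.75, adjusted p = 0.0699 by edgeR, and 0.0211 by DESeq2), and without fat-1 EtOH 3 and 4 it was 0.45 (adjusted p = 0.635). It was called without WT EtOH 2 (adjusted p = 0.0369 by edgeR) and without fat-1 EtOH 2 (adjusted p = 0.0428). In WT EtOH against WT PF it was 1.03 (SE 0.78, adjusted p = 0.57 by edgeR) and turned to -0.45 without WT EtOH 2. Over both genotypes it was 1.43 (SE 0.54, adjusted p = 0.052 by edgeR), called without any of WT PF 4, WT EtOH 1 or fat-1 EtOH 1, 2 or 5 (adjusted p from 0.0279 to 0.047), and close to 0 without the 3 libraries with large intestine markers. Macrophage markers (8 genes) summed to 215, 178 and 123 CPM in these 3 libraries, the last the lowest of all 16, and adipocyte markers (6 genes) to 444, 444 and 369 CPM, inside the range of 192 to 1055 CPM of the other 13.

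Hepatocyte markers were near 0 in all libraries. The 5 genes of that list summed to 2.11 to 7.24 CPM, with Alb, the liver's main plasma protein, at 0.111 to 3.28 CPM and Ahsg at 0.273 CPM or less.

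Lcn2 and Slpi, the antimicrobial and antiprotease products, were low in this tissue, and the highest of the 4 group medians was that of WT PF for both, at 6.05 CPM for Lcn2 and 13.4 CPM for Slpi. Lcn2 was at 2.08, 5.32, 6.78 and 8.002 CPM in WT PF, at 0.954, 1.97, 1.91 and 2.70 CPM in fat-1 PF, at 0.985, 1.99 and 2.77 CPM in WT EtOH and at 2.00, 0.680, 0.574, 1.43 and 1.97 CPM in fat-1 EtOH. WT PF 1 lay within the range of the other groups, and the other 3 WT PF mice were above every other mouse. Counts per library ran from 7 to 77, which limits the precision. EtOH against PF over both genotypes gave a fold of 0.496 (log2 fold change -1.01, SE 0.36, adjusted p = 0.0385 by edgeR). The call was lost in 10 of the 16 fits that each left out 1 library, with log2 fold changes between -1.20 and -0.85, and also without fat-1 PF 2 and 4 (-0.80, adjusted p = 0.166) or without fat-1 EtOH 3 and 4 (-0.89, adjusted p = 0.0699). Within genotypes the diet log2 fold change was -1.52 (SE 0.53, adjusted p = 0.235 by edgeR) in WT mice. In fat-1 mice it was -0.50 (SE 0.48, adjusted p = 0.431 by edgeR), or -0.25 without fat-1 EtOH 3 and 4 and -0.09 without fat-1 PF 2 and 4. The difference between PF genotypes was -1.56 (SE 0.49, adjusted p = 0.2 by edgeR), and it rests on the same WT PF mice as the diet difference in WT.

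Slpi was at 13.1, 19.1, 6.44 and 13.6 CPM in WT PF, at 6.15, 6.32, 6.97 and 10.3 CPM in fat-1 PF, at 6.63, 4.72 and 5.63 CPM in WT EtOH and at 3.71, 6.12, 2.87, 2.05 and 21.3 CPM in fat-1 EtOH. The highest value of all 16 was that of fat-1 EtOH 5, and the other 4 mice of that group were among the 6 lowest. WT EtOH against WT PF gave a log2 fold change of -1.20 (SE 0.65, adjusted p = 0.412 by edgeR). That of fat-1 EtOH against fat-1 PF was -0.04 (SE 0.56, adjusted p = 0.96 by edgeR), and -0.99 (adjusted p = 0.0384) without fat-1 EtOH 5. Over both genotypes it was -0.62 (SE 0.42, adjusted p = 0.263 by edgeR), and -1.09 (adjusted p = 0.00523) without fat-1 EtOH 5. Among the fits that left out 1 library, Slpi was called in both comparisons without fat-1 EtOH 5, and without fat-1 EtOH 3 and 4 the first value was 0.51 (adjusted p = 0.452). In fat-1 EtOH 5 the B-cell follicle markers (6 genes) summed to 416 CPM against 1.70 to 83.3 CPM in the other 15 libraries, the macrophage markers to 777 CPM against 123 to 361 CPM, and the adipocyte markers to 1055 CPM against 192 to 599 CPM. Neutrophil markers (9 genes) summed to 9.49 CPM in fat-1 EtOH 5 and to 1.16 to 4.66 CPM in the other 15 libraries. In that mouse Cxcr2 was at 1.88 CPM against 0.212 CPM or less elsewhere, Ngp at 1.11 CPM against 0 in every other library, S100a8 at 0.770 CPM and S100a9 at 1.71 CPM, both the highest of all 16. Csf3r (2.99 CPM) and Mmp8 (0.171 CPM) were also highest there, but Retnlg, Ly6g and Camp were not. Retnlg was at 0.770 CPM against 1.47 CPM in fat-1 PF 4, Ly6g at 0 against 0.656 CPM in fat-1 EtOH 3, and Camp at 0.0855 CPM against 0.273 CPM in fat-1 PF 3. Of the 9 markers 1 was at 0 counts in fat-1 EtOH 5 and 3 to 6 in the other libraries. The part of these cell types in the Slpi and Lcn2 values was not tested.

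Duox2, the peroxide-producing oxidase, and Duoxa2, the partner it needs to leave the endoplasmic reticulum, moved together from mouse to mouse. Duox2 was at 257, 317, 245 and 402 CPM in WT PF and at 242, 11.5, 321 and 69.96 CPM in fat-1 PF. It was at 768, 437 and 390 CPM in WT EtOH and at 495, 242, 95.9, 81.99 and 418 CPM in fat-1 EtOH. The 4 lowest libraries were fat-1 PF 2 and 4 and fat-1 EtOH 3 and 4, and the highest was WT EtOH 1. Duoxa2 was at 79.0, 124, 66.1 and 151 CPM in WT PF and at 78.2, 2.67, 156 and 11.8 CPM in fat-1 PF. It was at 248, 94.997 and 96.7 CPM in WT EtOH and at 145, 39.3, 11.2, 10.6 and 113 CPM in fat-1 EtOH. The same 4 libraries were the lowest and the same WT EtOH mouse the highest.

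Neither gene was called in any comparison by edgeR, and limma voom called Duox2 over both genotypes (log2 fold change 1.51, adjusted p = 0.0335, against 0.76 and 0.277 by edgeR). For fat-1 PF against WT PF the log2 fold changes were -0.92 (SE 0.75, adjusted p = 0.661 by edgeR) for Duox2 and -0.76 (SE 0.97, adjusted p = 0.808) for Duoxa2, and without fat-1 PF 2 and 4 they were -0.13 and 0.15. Without fat-1 PF 3 they were -1.51 and -1.77, and limma voom gave -1.90 (SE 0.69, adjusted p = 0.152) for Duox2 and -2.15 (SE 0.97, adjusted p = 0.242) for Duoxa2. For fat-1 EtOH against WT EtOH they were -0.996 (SE 0.75, adjusted p = 0.757 by edgeR) for Duox2 and -1.20 (SE 0.98, adjusted p = 0.757 by edgeR) for Duoxa2, and without fat-1 EtOH 3 and 4 they were -0.48 and -0.58. Over the fits that left out 1 library the differences between EtOH genotypes ran from -1.35 to -0.64 for Duox2 and from -1.76 to -0.59 for Duoxa2. Each of the 4 edgeR differences was smaller than its standard error without fat-1 PF 2 and 4 for the PF genotypes and without fat-1 EtOH 3 and 4 for the EtOH genotypes. Without all 5 libraries with unequal segment markers, those between EtOH genotypes exceeded theirs, at -0.60 (SE 0.36) for Duox2 and -0.81 (SE 0.61) for Duoxa2. Those between PF genotypes stayed smaller, at -0.13 (SE 0.34) and 0.14 (SE 0.59).

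After removal of the group means, log2(CPM + 0.5) of Duox2 and Duoxa2 correlated across the 16 mice with Pearson's r = 0.978 (permutation p = 2e-05, adjusted p = 0.00016 over the 8 pairs of genes tested) and Spearman's rho = 0.971 (permutation p = 4e-05). Without the 2 mice farthest from the median, r was 0.98, and over the 11 libraries other than the 5 with unequal segment markers r was 0.981. Duox2 and Nos2 gave r = 0.848 (permutation p = 0.0028, adjusted p = 0.0075) and rho = 0.818 (permutation p = 0.011) over 16 mice, but r = 0.182 and rho = 0.264 over the 11. The relation of Duox2 with Nos2 thus rests on the 5 libraries, and that of Duox2 with Duoxa2 does not.

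**Figure D3:**
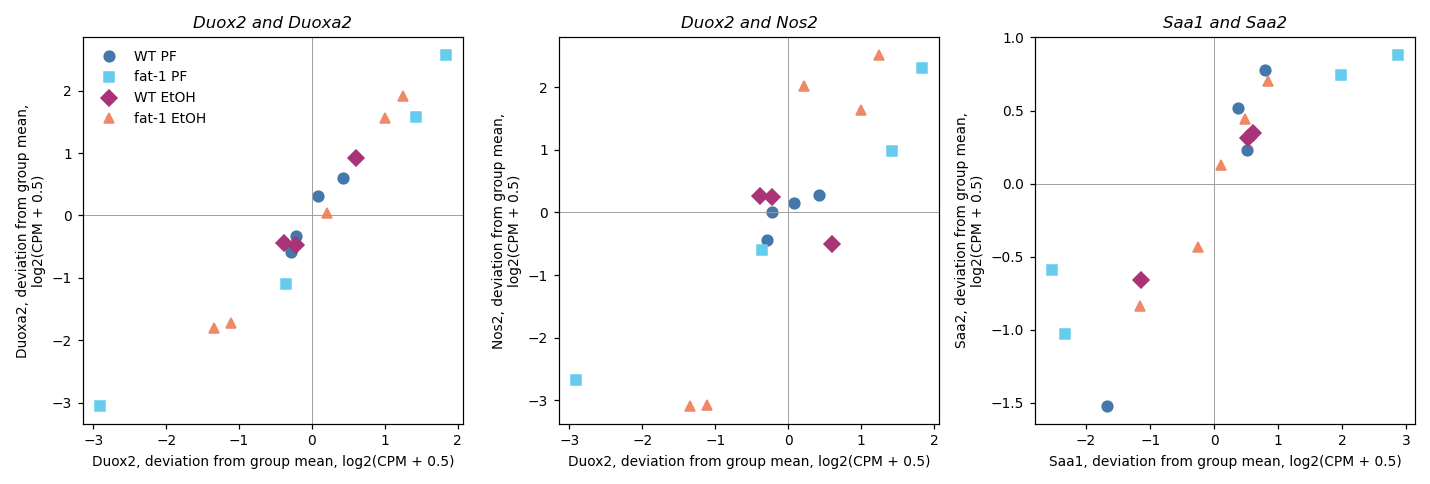
Deviation of each mouse from its group mean, on the log2(CPM + 0.5) scale, for Duox2 with Duoxa2, Duox2 with Nos2 and Saa1 with Saa2. The points of Duox2 and Duoxa2 lie close to a line (r = 0.978), and those of Duox2 and Nos2 spread more widely (r = 0.848).

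Nos2, the inducible nitric oxide synthase, had the widest range of the 10 genes, 124-fold from 2.41 to 299.7 CPM. It was at 201, 221, 148 and 244 CPM in WT PF and at 119, 8.98, 299.7 and 39.3 CPM in fat-1 PF. It was at 127, 214 and 215 CPM in WT EtOH and at 142, 100.01, 2.46, 2.41 and 76.4 CPM in fat-1 EtOH. The WT mice of both diets stayed between 127 and 244 CPM, while the lowest libraries were fat-1 EtOH 3 and 4 and fat-1 PF 2. Between the EtOH genotypes the log2 fold change was -1.52 (SE 1.06, adjusted p = 0.757 by edgeR), and -0.81 without fat-1 EtOH 3 and 4. In fat-1 PF against WT PF it was -0.80 (SE 1.05, adjusted p = 0.812 by edgeR), and 0.03 without fat-1 PF 2 and 4. That difference was -1.88 without fat-1 PF 3 and -1.94 (SE 0.93, adjusted p = 0.278) by limma voom. WT EtOH 2, the third library with large intestine markers, held Nos2 at 214 CPM and Duox2 at 437 CPM, within the range of the other WT mice.

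**Figure D4:**
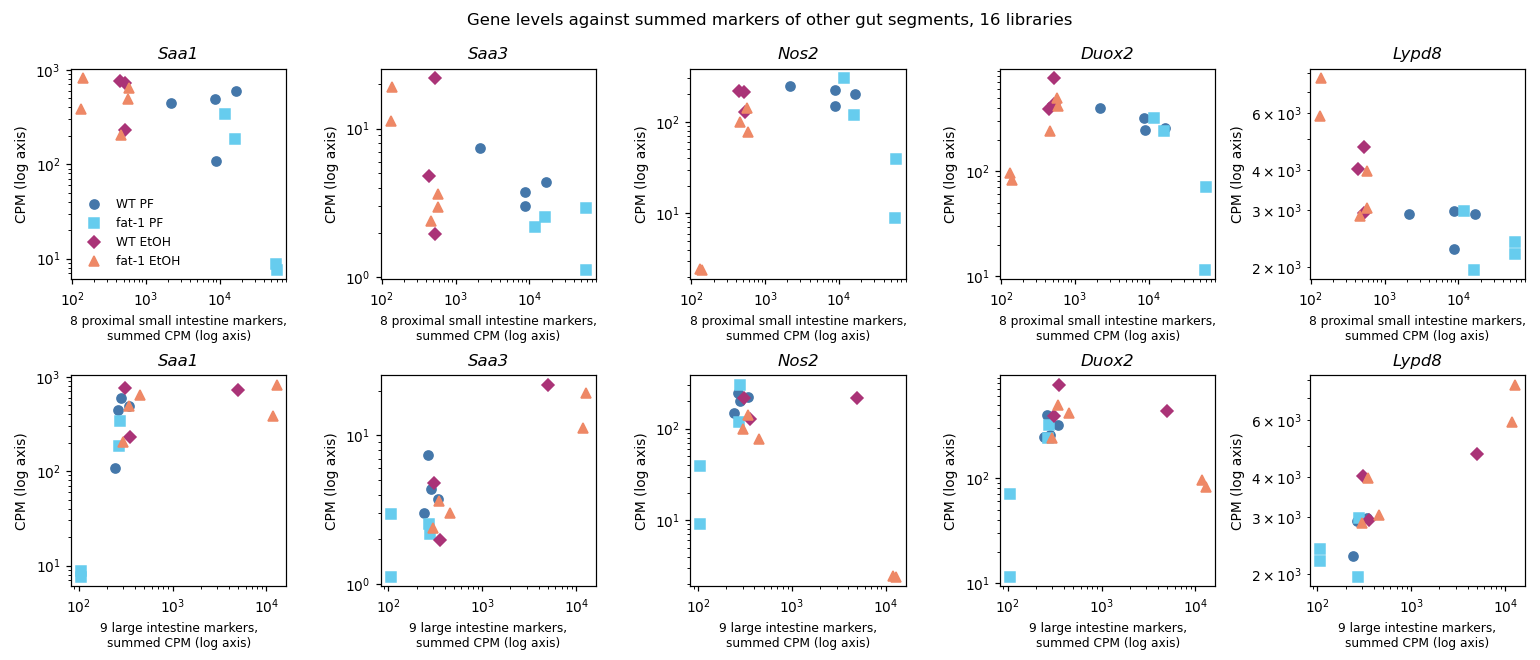
CPM of 5 genes against the summed CPM of 8 proximal small intestine markers (upper row) and of 9 large intestine markers (lower row), 1 point per library, log axes. Saa1 is at 7.61 and 8.84 CPM in the 2 libraries with the highest proximal sums, Nos2 and Duox2 are low at both ends of the proximal scale, and Saa3 and Lypd8 are highest in the libraries with large intestine sums of 4990 CPM or more.

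Socs3, the feedback inhibitor of STAT3 signals, fell with EtOH in fat-1 mice. It was at 90.9, 165, 204 and 85.4 CPM in fat-1 PF and at 81.5, 28.1, 17.6, 19.3 and 76.1 CPM in fat-1 EtOH, and these groups did not overlap, although the highest EtOH mouse lay close to the lowest PF mouse. In WT mice it was at 182, 180, 51.3 and 95.7 CPM with PF and at 87.7, 193 and 77.0 CPM with EtOH, overlapping through most of the range. The fat-1 EtOH level was 0.327 times that of fat-1 PF (log2 fold change -1.61, SE 0.53, adjusted p = 0.0277 by edgeR), and the exact two-sided permutation p was 0.0159, the smallest that 5 against 4 mice allow, or 0.317 after adjustment. The call was lost without any of fat-1 PF 2 or 3 or fat-1 EtOH 2, 3 or 4, with adjusted p between 0.0542 and 0.0827 and log2 fold changes from -1.50 to -1.34. Without both fat-1 EtOH 3 and 4 the log2 fold change was -1.11 (adjusted p = 0.129), and without both fat-1 PF 2 and 4 it was -1.72 (adjusted p = 0.0893). Against WT EtOH the log2 fold change of fat-1 EtOH was -1.42 (SE 0.56, adjusted p = 0.757 by edgeR), and it was -0.96 without fat-1 EtOH 3 and 4 and -0.42 without these and WT EtOH 2. The interaction, which tests whether the diet difference itself differed between genotypes, was -1.52 (SE 0.79, adjusted p = 0.597 by edgeR), or -1.03 and -0.49 without the same libraries, so a difference between the genotypes was not shown.

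Lypd8 was the most abundant of the 10 genes and rose with EtOH in fat-1 mice and in the mean of both genotypes. It was at 2928, 2978, 2267 and 2920 CPM in WT PF and at 1958, 2186, 2976 and 2387 CPM in fat-1 PF. It was at 2937, 4708 and 4016 CPM in WT EtOH and at 3975, 2877, 5899, 7706 and 3035 CPM in fat-1 EtOH. The 3 highest libraries, fat-1 EtOH 4, fat-1 EtOH 3 and WT EtOH 2, are again those with large intestine markers, and the lowest EtOH values lay within the PF range. In fat-1 mice the fold was 1.98 (log2 fold change 0.98, SE 0.28, adjusted p = 0.0138 by edgeR), and over both genotypes 1.67 (log2 fold change 0.74, SE 0.21, adjusted p = 0.0138 by edgeR). Without fat-1 EtOH 3 and 4 the first was 0.50 on the log2 scale (adjusted p = 0.0611) and the second 0.50 (adjusted p = 0.0125). Without all 3 libraries with large intestine markers the mean of both genotypes was 0.41 (adjusted p = 0.037), and without all 5 libraries it was 0.38 (adjusted p = 0.0941). Without fat-1 PF 2 and 4 neither difference was called, at 0.93 (adjusted p = 0.11 by edgeR) in fat-1 mice and 0.71 (adjusted p = 0.056) over both genotypes. In WT mice alone it was 0.49 (SE 0.31, adjusted p = 0.488 by edgeR), and in fat-1 EtOH against WT EtOH 0.27 (SE 0.30), turning to -0.25 without fat-1 EtOH 3 and 4.

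Levels of different genes were compared per kb of exon. In WT PF the order was Lypd8 at 2160 CPM per kb, Saa1 at 167, Duoxa2 at 66.04, Nos2 at 46.1, Duox2 at 45.1, Socs3 at 44.0, Slpi at 11.1, Lcn2 at 2.11, Saa3 at 1.77 and Saa2 at 1.21 CPM per kb. Neighbours from Saa1 to Socs3 overlapped in their ranges over 4 mice, as did Lcn2, Saa3 and Saa2, whereas Lypd8 stood apart from Saa1, Socs3 from Slpi, and Slpi from Lcn2. Lypd8 was first and Saa1 second in all 4 groups. Slpi was at 4.80 to 11.1 CPM per kb in the group means. In fat-1 PF Socs3 came next after Saa1, at 47.2 CPM per kb, and Saa1 at 54.6, Duoxa2 at 39.1, Nos2 at 26.4 and Duox2 at 23.8 CPM per kb overlapped it. In WT EtOH Saa1 was at 232, Duoxa2 at 92.1, Duox2 at 78.5, Nos2 at 42.0 and Socs3 at 41.2 CPM per kb. In fat-1 EtOH Saa1 was at 205, Duoxa2 at 40.1, Duox2 at 39.4, Socs3 at 15.4 and Nos2 at 14.6 CPM per kb. Every neighbour in the order from Saa1 down overlapped the next over the fat-1 EtOH mice. With the length of the main transcript in place of all exons, Saa1 in WT PF was at 677 CPM per kb and Saa3 ranked above Lcn2. In both EtOH groups Duox2 then ranked above Duoxa2 and Saa3 above Slpi, and in fat-1 EtOH Nos2 ranked above Socs3.

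Among the other pairs, Saa1 and Saa2 correlated with r = 0.886 (permutation p = 9e-05, adjusted p = 0.00036) and rho = 0.912 (permutation p = 0.00015), and with r = 0.959 over the 11 libraries. Saa1 and Saa3 gave r = 0.32 (permutation p = 0.1) and r = 0.658 over the 11, and Nos2 and Socs3 r = 0.544 (permutation p = 0.095), or 0.337 without fat-1 EtOH 3 and 4. Lcn2 with Slpi, Saa1 with Lcn2 and Lypd8 with Slpi gave r of 0.148, -0.124 and -0.537, with permutation p of 0.65, 0.66 and 0.17. Duox2 with Duoxa2 and Saa1 with Saa2, which are pairs of neighbours, were thus the pairs whose r was high over both the 16 and the 11 libraries. The part of misassigned Saa1 reads in the r of Saa1 with Saa2 was not tested.

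Genes known to act upstream of these 10 were examined as a list of 29, of which 25 passed the filter. The cytokines Il22, Il6, Il17a and Ifng did not pass it, and Il22, the cytokine that induces several of the 10 genes, was at 0.63 CPM or less, with 0 counts in 7 libraries. In fat-1 EtOH against fat-1 PF, 4 of the 25 rose and 4 fell, beside 37.4% of all genes called. The largest rises were those of Il1r1, the IL-1 receptor, at 1.34 (SE 0.33, adjusted p = 0.00659 by edgeR), and Il6ra, the IL-6 receptor, at 1.14 on the log2 scale. The largest falls were those of Cebpb, a transcription factor of the acute-phase response, at -1.22 (SE 0.20, adjusted p = 0.000658 by edgeR), and Tnfrsf1a, a TNF receptor, at -0.96. Over both genotypes 4 rose and 6 fell, beside 35.9% of all genes, with Il1r1 at 0.90 and Il22ra2, a soluble IL-22 binding protein, at 0.79 as the largest rises, and Cebpb at -0.996 and Tnfrsf1a at -0.69 as the largest falls. Il1r1 was at 29.2 and 25.2 CPM in fat-1 EtOH 3 and 4, at 7.31 to 12.8 CPM in the other EtOH mice and at 4.78 to 8.35 CPM in the PF mice. Without these 2 libraries 5 of the 25 rose and 6 fell in fat-1 mice, beside 30.8% of all genes, with Il1r1 at 0.70 (adjusted p = 0.034 by edgeR) and Cebpb at -1.17. Without fat-1 PF 2 and 4, 0 rose and 2 fell, beside 13.9% of all genes. Over both genotypes 1 (Il1r1) then rose and 4 fell, beside 23.9% of all genes, and without all 5 libraries 2 rose and 5 fell, beside 27.6% of all genes. Cebpb ran from 9.86 to 21.2 CPM in the PF mice and from 5.80 to 8.77 CPM in the EtOH mice, with no overlap. None of the 25 was called in the other comparisons, in which the log2 fold changes ran from -0.72 (Il22ra1) to 0.47 (Il1b) in fat-1 PF against WT PF, from -0.77 (Cebpb) to 0.46 (Il22ra2) in WT EtOH against WT PF, and from -0.70 (Cebpd) to 1.01 (Il1r1) in fat-1 EtOH against WT EtOH.

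Of 13 relatives and partners of the 10 genes, 9 passed the filter. Saa4, Duox1, Duoxa1 and Wfdc15b did not. In fat-1 EtOH against fat-1 PF, 5 of the 9 rose and none fell, beside 37.4% of all genes called. They were Wfdc2, a relative of Slpi, at 3.86 (SE 1.10), Nox1, the epithelial NADPH oxidase of the colon, at 3.02 (SE 0.91), Nos1, the neuronal nitric oxide synthase, at 2.28 (SE 0.53), Noxa1, the Nox1 activator, at 1.31 (SE 0.41), and Slc22a17, a receptor for Lcn2, at 0.93 (SE 0.29) on the log2 scale. Nox1 was at 5.00 and 3.57 CPM in fat-1 EtOH 3 and 4 and at 2.35 CPM or less elsewhere, while Duox2 was low in these 2 libraries. Wfdc2 was at 21.98 and 27.6 CPM in the same libraries and at 5.98 CPM or less elsewhere, Nos1 at 8.61 and 7.49 CPM against 3.53 CPM or less, and Noxa1 at 64.95 and 65.7 CPM against 34.5 CPM or less. Without fat-1 EtOH 3 and 4 only Nos1 of the 9 was called in fat-1 mice, at 1.16 (adjusted p = 0.0173 by edgeR), beside 30.8% of all genes, with Wfdc2 at 1.13 (adjusted p = 0.239), Nox1 at 1.29 (adjusted p = 0.197), Noxa1 at 0.37 (adjusted p = 0.225) and Slc22a17 at 0.68 (adjusted p = 0.0861). Without fat-1 PF 2 and 4, 10 of the 13 passed the filter and 2 (Nos1 and Slc22a17) rose, beside 13.9% of all genes, and without all 5 libraries 0 of 10 were called, beside 11.9%. Over both genotypes Wfdc2, Nox1, Nos1 and Noxa1 rose and Cyba, a subunit shared by NADPH oxidases, fell by 0.61 on the log2 scale, beside 35.9% of all genes called. Without fat-1 EtOH 3 and 4, Nos1 (1.30, adjusted p = 0.000938 by edgeR) and Noxa1 (0.58, adjusted p = 0.0131) were called there. Without fat-1 PF 2 and 4, Nos1 and Slc22a17 rose and Cyba fell over both genotypes, beside 23.9% of all genes, and without all 5 libraries 3 rose and 1 fell, beside 27.6%. In the other comparisons none was called. All 9 log2 fold changes were below 0 in fat-1 PF against WT PF, from -1.36 (Nox1) to -0.01 (Noxa1). They ran from -1.04 (Ly6d) to 1.43 (Nos1) in WT EtOH against WT PF and from -0.01 (Cyba) to 1.98 (Wfdc2) in fat-1 EtOH against WT EtOH.

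Of 20 further inducible defense genes of the epithelium, 18 passed the filter, with the chemokines Cxcl1 and Cxcl5 left out. With EtOH in fat-1 mice 5 rose and 3 fell, beside 37.4% of all genes called, led by Retnlb, an antibacterial resistin-like protein of goblet cells, at 6.98 (SE 1.47), and Fut2, a fucosyltransferase, at 3.70 (SE 0.96), with Il18, an epithelial cytokine, at -2.16 (SE 0.31) and Ccl20, a chemokine for lymphoid cells, at -1.92 (SE 0.51) as the largest falls. Over both genotypes 4 rose and 2 fell, beside 35.9% of all genes, with Retnlb at 5.57, Fut2 at 2.76, Il18 at -1.55 and Pigr, the polymeric immunoglobulin receptor, at -0.55. Retnlb was at 70.3 and 62.2 CPM in fat-1 EtOH 3 and 4, at 36.6 CPM in WT EtOH 2, at 1.19 to 8.65 CPM in the other EtOH mice and at 1.86 CPM or less in the PF mice. Fut2 was at 232 and 189 CPM in fat-1 EtOH 3 and 4 and at 88.9 CPM or less elsewhere. Without these 2 libraries 3 of the 18 rose and 4 fell in fat-1 mice, beside 30.8% of all genes called. Retnlb was then at 4.31 (adjusted p = 0.00975 by edgeR), Fut2 at 1.92 (adjusted p = 0.0823), Il18 at -1.89 (adjusted p = 0.00213) and Ccl20 at -1.69 (adjusted p = 0.0486). Without fat-1 PF 2 and 4, 0 rose and 1 fell (Il18), beside 13.9% of all genes, with Ccl20 at -0.78 (adjusted p = 0.239 by edgeR). Over both genotypes 3 then rose and 1 fell, beside 23.9% of all genes, and without all 5 libraries 1 rose and 2 fell, beside 27.6%. The lectins Reg3b and Reg3g, among the most abundant defense transcripts of the ileum, were not called, and were lowest in fat-1 EtOH 3, at 798 and 205 CPM, against 25990 and 13430 CPM at their highest, in WT EtOH 2. None of the 18 was called in the other comparisons, in which the log2 fold changes ran from -2.10 (Retnlb) to 1.25 (Ccl20) in fat-1 PF against WT PF, from -0.95 (Il18) to 4.17 (Retnlb) in WT EtOH against WT PF, and from -1.25 (Tifa) to 0.95 (Fut2) in fat-1 EtOH against WT EtOH.

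For each gene, the genes with the most similar order of levels over the 16 libraries were found by Spearman's rho of log2 CPM, as a description that includes the differences between groups and between the segment markers. Saa1 was most like Saa2 (0.96), Bex3 (0.87) and Dmbt1 (0.83), and Saa2 was most like Saa1, Grip2 (0.84) and AW554918 (0.83). Lypd8 shared Bex3 (0.91) and Dmbt1 (0.91) with Saa1, followed by Thbs4 (0.90). Duox2 was most like Tmem173 (0.90), Duoxa2 and Hgf (0.88 each), and Duoxa2 was most like Srf (0.94), Duox2 (0.88) and Syne4 (0.87). Nos2 was most like Nxf7 (0.96), Batf2 and Mmp20 (0.94 each), and Socs3 was most like Rab22a, Tax1bp1 (0.94 each) and Gpr160 (0.93). Saa3 was most like E230025N22Rik (0.88), Chrnb4 and Clip3 (0.82 each), Slpi was most like Gnai2, Ptprcap (0.89 each) and Msln (0.88), and Lcn2 had the lowest values of rho, at 0.79 for Mx1 and 0.78 for Pitpnm1 and Gbp7.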

How the data were processed

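Ileal RNA was sequenced as paired 75-base reads after poly(A) selection and strand-marking library preparation. The authors aligned reads to mm10 with TopHat2, guided by Ensembl annotation, and deposited 1 table of raw read counts per gene for all 16 libraries. The counting settings, strand included, were not given in the sources used here. Groups came from the labels. Member genes, gene lists and tests were chosen with earlier results of these data known.

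Counts were fitted with edgeR 4.0.16 (TMM, filterByExpr, robust glmQLFit, 1 mean per group) in R 4.3.3, over all 16 libraries and 13811 genes, with Benjamini-Hochberg adjustment and a threshold of 0.05. The study's own test, cuffdiff2, works on aligned reads, which were not used here. Single genes were also compared by exact two-sided permutation of log2(CPM + 0.5), in 40 tests, and 8 pairs of genes by 100000 permutations within groups. Of the 40 single-gene tests 4 had p of 0.05 or less and 0 after adjustment, and 3 against 4 mice cannot go below 0.0571. Alternatives were DESeq2 1.42.0, limma 3.58.1 voom, other scaling, filters and pseudocounts, a replicate block, and fits without single or several libraries. The fits without fat-1 PF 2 and 4, and the values of the gene lists without several libraries, were added after seeing the data. Named genes were all 10 members, the called genes of each list (the 2 most changed each way where over 5) or otherwise the extremes, and 3 genes of most similar order per member. Annotation was GENCODE M21 and promoters came from RefSeq. Scripts were tested on simulated data.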

Additional observations from a re-analysis of the deposited data

Results flagged for a closer look

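Within groups of 4 or 5 mice, 30 sets of values were examined for a mouse far from the others by Dixon's test, and 2 stood out. Chance marks about 1 in 20 such sets. Slpi in fat-1 EtOH 5 was at 21.3 CPM, with the other 4 mice of the group at 2.05 to 6.12 CPM. Lypd8 in WT PF 3 was at 2267 CPM, with the other 3 mice of the group at 2920 to 2978 CPM.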

How the results depend on the processing

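In WT EtOH against WT PF, 0 of the 10 genes were called, and 1 (Lcn2) with limma voom, beside 20.3% of all genes. In fat-1 EtOH against fat-1 PF, 2 were called, and 4 with DESeq2 (Saa2, Saa3, Socs3 and Lypd8), beside 40.3% of all genes. Voom called 2 (Saa1 at 3.64, adjusted p = 0.0402, and Lypd8, with Socs3 lost at 0.133), beside 26.4% of all genes. The count was 0 with only the groups compared, beside 23.2% of all genes. It was also 0 without fat-1 EtOH 3 and 4 (beside 30.8%), without these and WT EtOH 2 (29.7%), without fat-1 PF 2 and 4 (13.9%) and without all 5 (11.9%). Leaving out 1 library at a time gave 1 to 3, with 3928 to 5430 of all genes called. In EtOH against PF over both genotypes, 2 were called, and 3 with DESeq2 (Saa3 at an adjusted p of 0.016, Lcn2 and Lypd8), beside 39% of all genes. Voom called 2 (Duox2 and Lypd8, with Lcn2 lost at 0.0855), beside 42.2% of all genes. The count was 1 (Lypd8) without fat-1 EtOH 3 and 4 (beside 34.9%) or these with WT EtOH 2 (32.9%). It was 0 without fat-1 PF 2 and 4 (beside 23.9%) or without all 5 (27.6%). Leaving out 1 library gave 1 to 4, with 3798 to 5245 of all genes called. There the count was 1 (Lypd8) without WT PF 2 or 3, fat-1 PF 2, 3 or 4, WT EtOH 2 or fat-1 EtOH 3, and 4 without fat-1 EtOH 5. In the other comparisons and for the interaction the count stayed at 0 under every alternative run, over 6 genes only for DESeq2 in fat-1 PF against WT PF. Direction turned for Nos2 (0.0311 and 0.0253) and Duoxa2 (0.15 and 0.14) in fat-1 PF against WT PF without fat-1 PF 2 and 4 and without all 5. It turned in fat-1 EtOH against fat-1 PF for Lcn2 without all 5 (0.14) and for Slpi without fat-1 EtOH 3 and 4 (0.51), these and WT EtOH 2 (0.51), fat-1 PF 2 and 4 (0.15) and all 5 (0.67), with -0.99 to 0.20 over the fits that left out 1 library. It turned for Saa3 in WT EtOH against WT PF with voom (-0.11), without WT EtOH 2 (-0.45, the lowest of -0.45 to 1.52 over the fits that left out 1 library), without the 3 EtOH libraries (-0.46) and without all 5 (-0.44), and over both genotypes without the 3 (-0.0011) and all 5 (-0.0492). It turned for Lypd8 in fat-1 EtOH against WT EtOH without fat-1 EtOH 3 and 4 (-0.25), the 3 (-0.0785) and all 5 (-0.0846). The cause was not tested.

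Mice sharing a number did not deviate together (mean r -0.0225 over 21 pairs, against 0.00703 over 74 pairs of other numbers). The labels do not say whether the numbers stand for pair-fed mice, and this correlation cannot decide it. With a replicate block, 3 genes (Slpi, Socs3 and Lypd8) were called in fat-1 EtOH against fat-1 PF, beside 34.4% of all genes, and the same 3 over both genotypes, beside 35% of all genes, with Slpi at -1.06 (adjusted p = 0.0387) and -1.08 (adjusted p = 0.00955). Over both genotypes Lcn2 was then at -0.95 (adjusted p = 0.0595) and Socs3 at -1.18 (adjusted p = 0.0395), and the other comparisons gave 0 calls with the block. Few counts limit Saa2, Lcn2, Saa3 and Slpi.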
